A study of Caenorhabditis elegans with 2 samples.

Results

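The chromosomal passenger, Aurora and Polo genes of Caenorhabditis elegans are 6 listed genes, air-1, air-2, icp-1, csc-1, bir-1 and plk-1, out of 19973 nuclear protein-coding genes in the annotation. They were chosen by name, and each was examined for LIN-35 ChIP-seq summits within 500 bp of its annotated 5' end. LIN-35 is the retinoblastoma-family pocket protein of the worm. The study has 1 group of 2 biological replicates and no other condition. Both replicates are whole young adults of mixed sex of strain YL521, which has the unc-119(ed3) mutation and the integrated transgene vrIs117. In that transgene the pie-1 promoter, a germline promoter, drives LIN-35 tagged with GFP and FLAG ahead of the puf-5 3' untranslated region, and unc-119 (+) is included as the rescue gene. The antibody is listed against lin-35, and the labels do not separate tagged from endogenous protein. In whole worms, strong binding in few cells and weak binding in many cannot be told apart.

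The chromosomal passenger complex joins the Aurora B kinase AIR-2 to the scaffold ICP-1, the INCENP orthologue, and to CSC-1 and BIR-1, which correspond to Borealin and Survivin. The complex corrects chromosome attachment to the spindle, releases cohesion and is needed for cytokinesis. AIR-1, the Aurora A kinase, acts at centrosomes in spindle assembly, and PLK-1, a Polo-like kinase, drives centrosome maturation, nuclear envelope breakdown and mitotic entry. The pocket protein is a subunit of DREAM, a complex that represses cell cycle genes, and its E2F-DP and LIN-54 subunits contact DNA at E2F sites and CHR elements.

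A thresholded summit lay near csc-1, plk-1 and icp-1 and near none of air-1, bir-1 and air-2. These are 3 of 6 genes, beside 8.61% of all coding genes called by the same rule. The thresholded list holds the 2712 peaks of the authors' list thresholded by irreproducible discovery rate. They are the 2712 strongest of the 30000 peaks in the list called on both replicates pooled. A place in it therefore follows the pooled signal and does not show that a peak is strong in each replicate. Of the 2683 nuclear thresholded summits, 53.0% were among the 2712 strongest of both replicates. All 3 summits were upstream and intergenic, 126 to 233 bp from the 5' end. For comparison, the strongest summit of all 1719 bound genes was upstream in 89.2% and had a median offset of -177 bp. The 3 genes are on chromosomes II, III and I, where 8.18%, 14.5% and 13.3% of coding genes were bound. Of the genes without a thresholded summit, air-2 is also on chromosome I. The genes air-1 and bir-1 are on chromosome V, where 5.57% of coding genes were bound. In worms the 5' end of a gene model is often a trans-splice site or a start codon, so a distance from it is not a distance from the start of transcription.

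**Figure D1:**
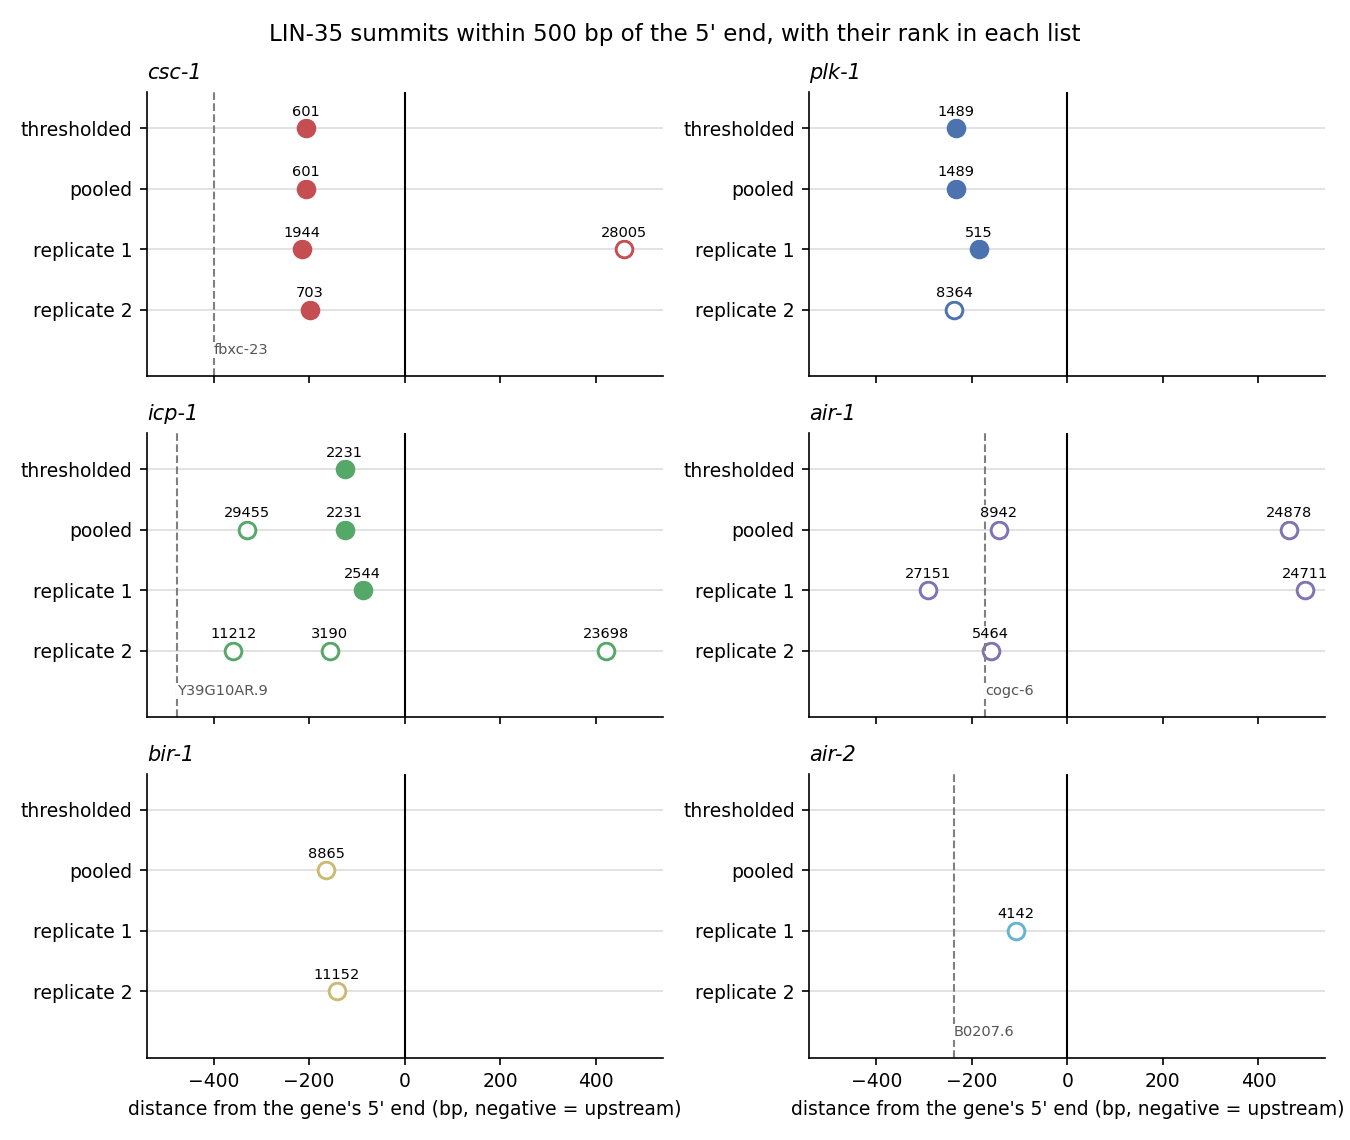
Summits within 500 bp of the 5' end (vertical line) of each gene, in bp along the gene with negative values upstream, in the 4 ce11 peak lists; numbers are ranks by the authors' signal, filled circles are among the 2712 strongest of their list, open circles are not, and dashed lines are the 5' ends of divergent neighbours. The genes csc-1, plk-1 and icp-1 have a thresholded summit, and air-1, bir-1 and air-2 have only open circles.

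The DNA at these summits was searched on both strands, within 100 bp of the summit, for 4 E2F words and 2 CHR words. The E2F words were TTCCCGC, together with TTCGCGC, then also TTGCCGC, and lastly TTGGCGC; the CHR words were TTCGAA as well as TTTGAA. No word of either motif contains a word of the other, and TTCGAA reads the same on both strands. The sequences below show the words found at 4 genes in 28 bases of the RefSeq WBcel235 genome, which is ce11, with the word in capitals and each read 5' to 3' on the strand that carries the word.
csc-1 E2F word, chrII:13596780-13596807, minus strand: atcgaaaaattTTCGCGCtcgcattcgg
bir-1 E2F word, chrV:11644365-11644392, minus strand: cactgacgaatTTCGCGCtgaaatatac
csc-1 CHR word, chrII:13596673-13596700, minus strand: tgaaaacatgaTTTGAAatatatttttt
plk-1 CHR word, chrIII:8101189-8101216, plus strand: aagcatcaacaTTCGAAtttgccgtccg
air-1 CHR word, chrV:8221358-8221385, minus strand: aaggcagtcacTTTGAAtgaattttgct
The E2F words at csc-1 and bir-1 are the same 7 letters on the same strand relative to their genes, 162 and 99 bp upstream of the 5' ends.

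Among the 3 thresholded summits, those at csc-1 and icp-1 had an E2F word and that at plk-1 had none. The share with an E2F word was 24.7% over the 1354 thresholded summits at coding 5' ends and 6.89% over windows of the same length, 201 bp, centred 150 bp upstream of all coding 5' ends. At csc-1 the word was 44 bp from the summit, and icp-1 had 2 words, 14 and 56 bp from it. All 3 summits had a CHR word, which is common: 55.2% of the thresholded summits at coding 5' ends and 55.9% of all the 5' end windows had it. GC content of the windows was 35.8% at csc-1, 40.8% at plk-1 and 41.3% at icp-1, beside a mean of 40.2% ± 6.79 (SD, n = 1354) over the thresholded summits and 34.2% ± 6.38 (SD, n = 19973) over all 5' end windows. The windows of air-1, bir-1 and air-2 were taken at summits below the threshold. There bir-1 and air-2 had 1 E2F word and no CHR word, and air-1 had 1 CHR word and no E2F word. A match describes these letters and does not show a site in use.

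**Figure D2:**
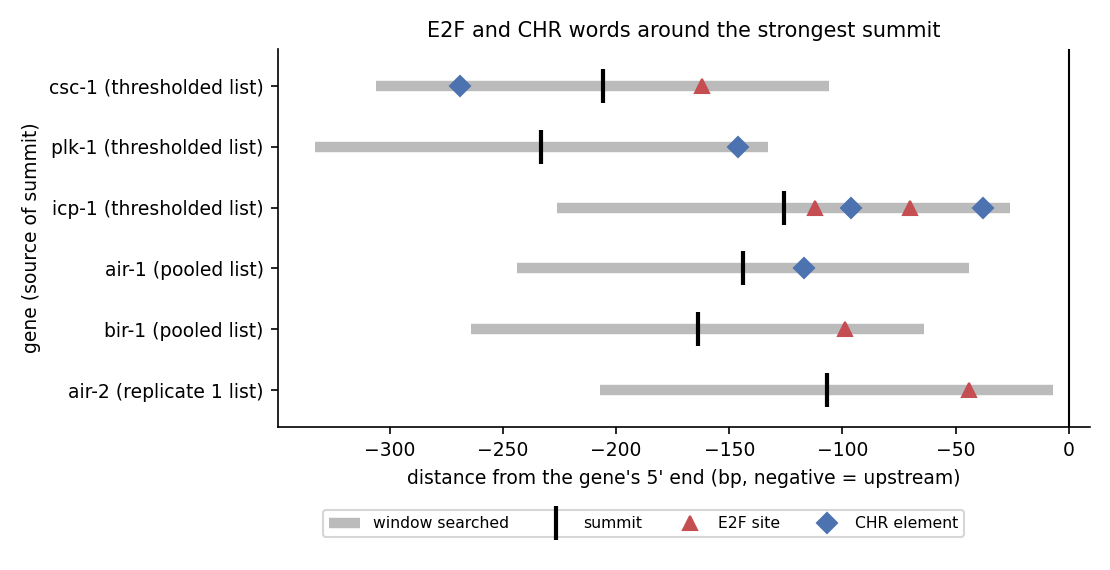
E2F words (triangles) and CHR words (diamonds) in the 201 bp around the strongest summit (bar) at each gene, by distance from the 5' end in bp; the list that supplied the summit is named at the left. E2F words are present at csc-1, icp-1, bir-1 and air-2, and CHR words at csc-1, plk-1, icp-1 and air-1.

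Of the passenger complex genes, csc-1 had the strongest summit, and it was the only one of the 6 genes with a summit among the 2712 strongest of both replicates. The gene csc-1 (WBGene00000804, chromosome II 13596955 to 13597947, plus strand) encodes the Borealin-like subunit. Its thresholded peak, at 13596691 to 13596848, had a signal of 118 and rank 601, higher than the signal of 67.4% of the bound genes. In replicate 1 the summit had a signal of 23.6 and rank 1944 of 30000, and in replicate 2 a signal of 70.3 and rank 703 of 26192. The scale of the signal is not stated and differs between lists, so ranks are the values to set side by side. The replicates' summits were 16 bp apart, and both ranks were among the 2712 strongest of their list. The summit is shared with fbxc-23, a divergent gene whose 5' end is 194 bp away, against 206 bp for csc-1, so it cannot be assigned to csc-1 alone.

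The scaffold gene icp-1 (WBGene00002047, chromosome I 2304513 to 2306790, minus strand) had the weakest of the 3 thresholded summits. Its peak at 2306768 to 2307063 had a signal of 48.1 and rank 2231, above only 9.66% of the bound genes, where the lowest signal of a bound gene was 41.9. The rank was 2544 in replicate 1, with a signal of 20.1, and 3190 in replicate 2, with a signal of 23.8. The replicates thus ranked it alike, just inside the 2712 strongest in replicate 1 and just outside in replicate 2, with summits 69 bp apart. The ratio of the larger to the smaller rank was 1.25, and 81.3% of the 2527 nuclear thresholded summits found in both replicate lists had a larger ratio. The summit was 126 bp from icp-1 and 351 bp from the divergent gene Y39G10AR.9, so icp-1 was the nearer of the 2.

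The gene downstream of icp-1 on the same strand, 115 bp away, is tpxl-1, which encodes the TPX2-like activator of AIR-1. A gap of this size is typical of genes in an operon, but the annotation used here names no operon. The strongest summit at tpxl-1 itself was weak, with a signal of 10.8 and rank 16503 in the pooled list and a signal of 3.20 and rank 24554 in replicate 1. No summit of replicate 2 lay within 500 bp of the tpxl-1 5' end.

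The gene bir-1 (WBGene00000249, chromosome V 11644477 to 11645370, plus strand), which encodes the Survivin-like subunit, had summits below the threshold in 2 of the 3 relaxed lists. The relaxed lists, the pooled one and 1 for each replicate, also hold background by the authors' own description. In the pooled list its summit was 164 bp upstream at rank 8865 with a signal of 18.5, and in replicate 2 it was 142 bp upstream at rank 11152 with a signal of 8.47. Replicate 1 had no summit within 500 bp. The nearest thresholded summit was 5739 bp upstream. No other coding 5' end was within 500 bp of the bir-1 summits, but the 5' end of linc-153, a long intergenic noncoding RNA gene on the opposite strand, was 397 bp from the pooled summit.

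The gene air-2 (WBGene00000099, chromosome I 5937195 to 5938881, plus strand), which encodes the Aurora B kinase of the complex, had a summit in replicate 1 and in no other list. That summit was 107 bp upstream, with a signal of 15.2, rank 4142 of 30000 and a −log10 q-value of 3.78. This is the highest value in that list, but many peaks can share it. The replicate 1 summits at plk-1, csc-1 and icp-1, at ranks 515, 1944 and 2544, had the same value. Replicate 2 and the pooled list had no summit within 500 bp of the air-2 5' end, and the nearest thresholded summit was 36449 bp away. The replicates therefore differ in whether a peak was listed at air-2. The replicate 1 summit lies between air-2 and the divergent gene B0207.6, 131 bp from the B0207.6 5' end.

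The gene air-1 (WBGene00000098, chromosome V 8221488 to 8223582, plus strand), encoding the Aurora A kinase, had summits in all 3 relaxed lists but none past the threshold. The pooled summit was 144 bp upstream at rank 8942 with a signal of 18.4, and the replicate 2 summit was 160 bp upstream at rank 5464 with a signal of 15.6. In replicate 1 the strongest summit was 498 bp inside the gene at rank 24711, and a weaker summit lay 291 bp upstream at rank 27151. That weaker upstream summit was in an exon of cogc-6. It lay within 200 bp of the intergenic upstream summits of the pooled list and of replicate 2, a match by position but not by rank. In replicate 1 the −log10 q-value was 0.451 at the weaker summit and 0.684 at the one inside air-1. At the upstream summit it was 3.55 in the pooled list and 4.13 in replicate 2, the highest value in that replicate's list. The upstream summit was nearer to the divergent gene cogc-6 than to air-1, at 28 bp in the pooled list and 12 bp in replicate 2. The nearest thresholded summit was 7504 bp downstream of the air-1 5' end.

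The Polo kinase gene plk-1 (WBGene00004042, chromosome III 8101348 to 8104069, plus strand) had a thresholded summit whose strength differed most between the replicates among the 3. The peak at 8100967 to 8101262 had a signal of 64.2 and rank 1489, above 31.4% of the bound genes. In replicate 1 it had a signal of 50.5 and rank 515, and in replicate 2 a signal of 11.1 and rank 8364. The summit positions were 52 bp apart, 185 and 237 bp upstream of the 5' end. The larger rank was 16.2 times the smaller. Of the 2527 nuclear thresholded summits found in both replicate lists, 1.39% had a larger ratio, and the median ratio was 1.95. Those 2527 are 94.2% of the 2683 nuclear thresholded summits. The rest were missing from a replicate list and have no ratio, so the 1.39% leaves them out. With 2 libraries the difference at plk-1 has no further replicate. No other coding 5' end lay within 500 bp of the plk-1 summit. A noncoding RNA gene, C14B9.15, lies between the summit and plk-1 on the same strand, has its 5' end 111 bp from the summit and overlaps the peak by 37 bp.

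**Figure D3:**
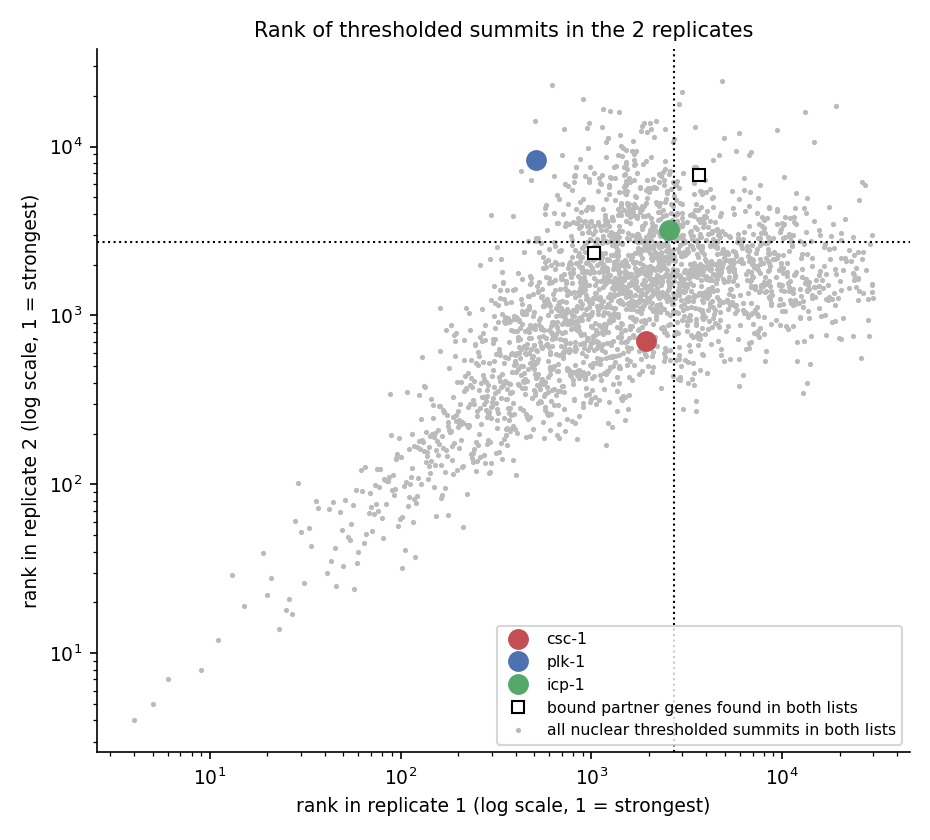
Rank of each thresholded nuclear summit in replicate 1 (x axis) and replicate 2 (y axis), both on log scales with 1 the strongest, for csc-1, plk-1 and icp-1 (circles), bound partner genes found in both lists (squares) and all summits found in both (dots); dotted lines mark rank 2712. The plk-1 point, at 515 and 8364, lies at the upper left edge of the dots, while csc-1 is inside both lines.

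Signals at the 3 genes ran from near the threshold to above the median of bound genes. Their signals were 48.1 to 118 with a median of 64.2, beside a median of 86.1 over the 1719 bound coding genes, whose highest signal was 2773. The order was csc-1, plk-1, icp-1 in the pooled list, but plk-1, csc-1, icp-1 in replicate 1 and csc-1, icp-1, plk-1 in replicate 2. Only the place of csc-1 above icp-1 was common to both replicates.

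**Figure D4:**
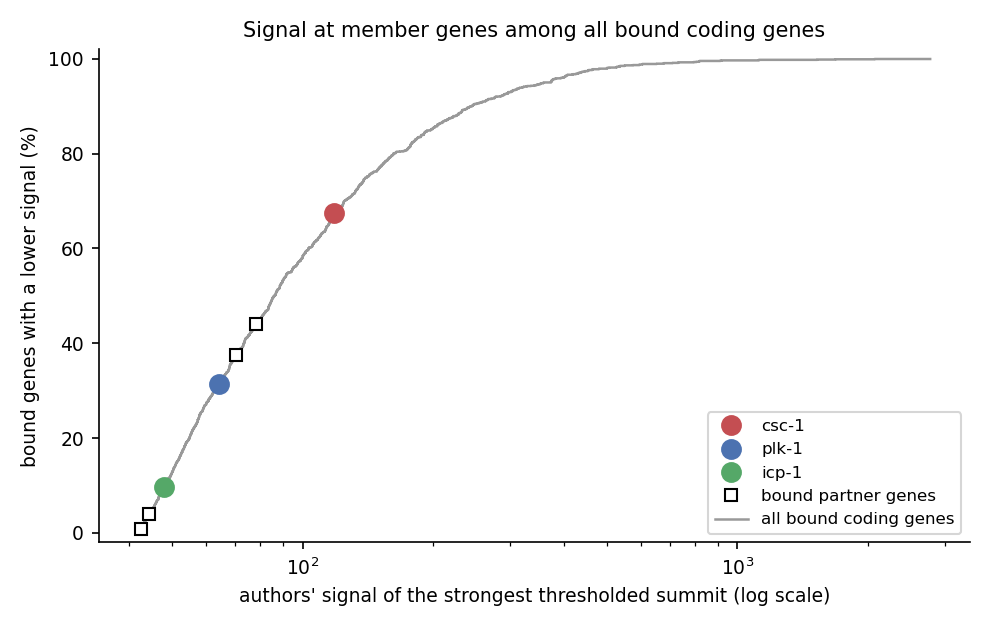
Share of bound coding genes with a lower signal (y axis, %) against the authors' signal of the strongest thresholded summit (x axis, log scale), for csc-1, plk-1 and icp-1 (circles), bound partner genes (squares) and all bound coding genes (line). The csc-1 point is at 67.4%, plk-1 at 31.4% and icp-1 at 9.66%.

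Counts from single replicates differed. The 2712 strongest peaks of replicate 1 called csc-1, plk-1 and icp-1, 3 of 6, beside 7.75% of all coding genes. The 2712 strongest of replicate 2 called csc-1 alone, 1 of 6, beside 8.47% of all coding genes. With only the thresholded summits that were among the strongest of both replicates, csc-1 was again the gene called, beside 5.48%, and the same held for the 1356 strongest thresholded peaks, beside 5.52%. In each relaxed list 5 of 6 genes had some summit within 500 bp, beside 29.2% of coding genes in the pooled list, 31.1% in replicate 1 and 28.0% in replicate 2. The gene without one was air-2 in the pooled list and in replicate 2, and bir-1 in replicate 1.

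The call also depended on the distance and on shared promoters. Within 200 bp icp-1 was the gene called, beside 4.49% of all coding genes, because the csc-1 and plk-1 summits were 206 and 233 bp away. Within 1000 bp the same 3 genes were called as at 500 bp, beside 10.9%. With each summit given only to its nearest coding 5' end, plk-1 and icp-1 remained, beside 6.71%. Using the 5' end of any coding transcript gave the same 3 genes, beside 9.14%, and so did merging overlapping peaks, beside 8.60%. None of the 10 rules applied to the thresholded or strongest peaks called air-1, bir-1 or air-2.

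**Figure D5:**
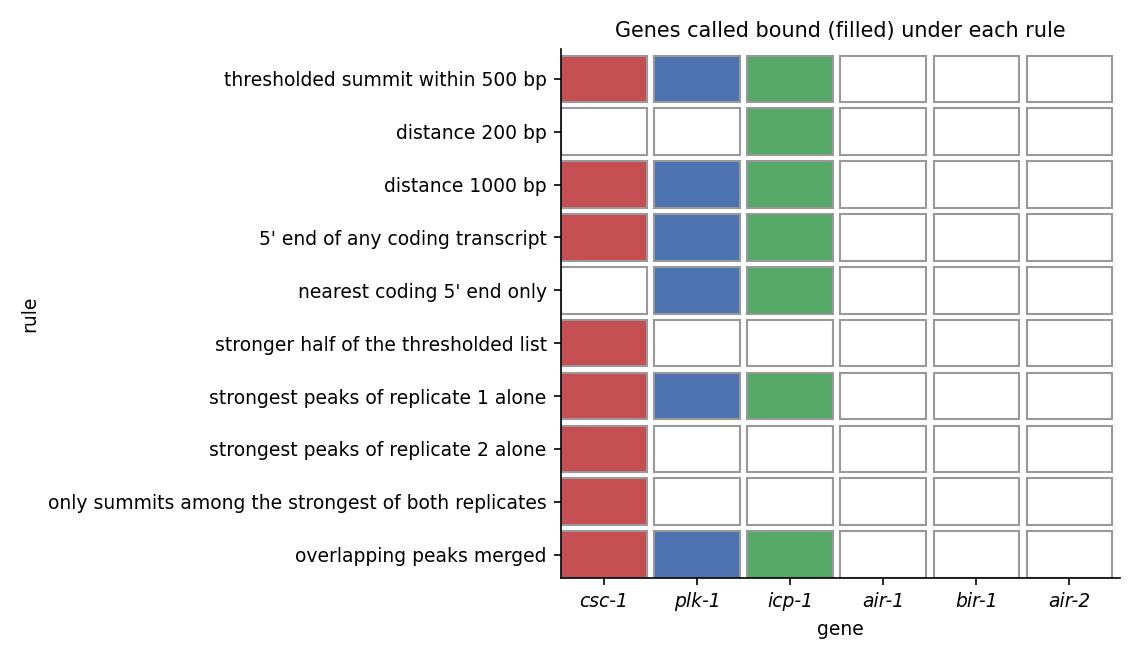
Genes called bound (filled cells) under each rule (rows) for the 6 genes (columns). The gene csc-1 is filled in 8 of 10 rows and is empty in the rows for 200 bp and for the nearest 5' end, while air-1, bir-1 and air-2 are empty in every row.

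Summits inside the genes, more than 500 bp from the 5' end, were weak and were found in relaxed lists at plk-1, icp-1 and air-1. At plk-1 the pooled list had a summit 1035 bp downstream of the 5' end, in an intron, with a signal of 11.8 and rank 15170, and replicate 2 had one at 975 bp with rank 13139. At icp-1 the pooled summits at 802 and 2255 bp had ranks 20841 and 16503, and the second of these is the summit upstream of tpxl-1. None of these was past the threshold.

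Of 22 partner genes, which are known to act with, upstream or downstream of the 6, 4 had a thresholded summit, spd-2, spd-5, sgo-1 and cdk-1, beside 8.61% of all coding genes, and their median signal was 57.4. SPD-2 and SPD-5 build the pericentriolar material in which AIR-1 and PLK-1 act. The spd-2 summit (signal 78.1, rank 1124) was 90 bp upstream and 120 bp from the divergent gene F32H2.10. It was at rank 979 in replicate 2 and was not found within 200 bp in replicate 1. The spd-5 summit (signal 70.3, rank 1306) was 219 bp inside the gene, in an intron and 394 bp from npp-6, and had ranks 1031 and 2335 in replicates 1 and 2. It was the only bound partner gene among the strongest peaks of both replicates.

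The other 2 bound partners had summits near the threshold. The mitotic kinase gene cdk-1 had a signal of 44.5 and rank 2495, 115 bp upstream and 164 bp from iff-1, with rank 2028 in replicate 1 and no summit within 200 bp in replicate 2. The shugoshin gene sgo-1 had a signal of 42.5 and rank 2657, 435 bp upstream, with ranks 3653 and 6800 in replicates 1 and 2. Partners just outside the threshold included the kinesin-5 gene bmk-1, an AIR-2 substrate, with a pooled signal of 39.0 and rank 3017. The others were the haspin gene hasp-1 (signal 38.7, rank 3038), the PP1 phosphatase gene gsp-2 (38.5, rank 3071) and the centralspindlin gene cyk-4 (37.9, rank 3153). Their strongest summits in replicates 1 and 2 ranked 1182 and 10384 at bmk-1 and 3533 and 15985 at hasp-1. The replicates were closer at gsp-2, with ranks 3477 and 2505, and at cyk-4, with 2920 and 3081. Of the Polo relatives, plk-2 had no summit in the pooled list and plk-3 had one at rank 8833 with a signal of 18.5. Each had a summit in a single replicate, plk-2 at rank 10738 in replicate 2 and plk-3 at rank 13452 in replicate 1. The partner genes lab-1, klp-7 and ect-2 had no summit within 500 bp of the gene's annotated 5' end in any of the lists. However, ect-2 had a thresholded summit within 1000 bp, and within 500 bp of the 5' end of a coding transcript. Neither rule called lab-1 or klp-7.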

How the data were processed

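Per the deposited text indexes, the authors called relaxed peak lists against a control on each replicate and on both pooled, and derived the thresholded list from these 3; the aligner and peak caller are not given in the labels or files used here. The 4 ce11 lists were used, and the ce10 lists were not used here. Each peak has a deposited signal, used for ranks within a list, and a deposited −log10 q-value. Depth is unknown.

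Gene positions came from Ensembl release 115 (WBcel235, which is ce11); no peak ran past a chromosome end. Coordinates are 1-based. A gene was called bound when a summit lay within 500 bp of its 5' end; summits within 200 bp were matched between lists. Named genes were the 6 members, genes sharing their summits, run neighbours and bound partners. The 2 genes nearest in rank to each bound member, leaving out those that share its pooled summit, were also named. The partners just outside the threshold or without a summit, the Polo relatives, C14B9.15, linc-153, tpxl-1 and skp-1 were named after their values were seen. Members and lists were chosen with earlier results of these data known. With 1 group no test was run. Alternatives covered distance, transcript 5' ends, nearest 5' end, the 1356 strongest peaks, single replicates, merged peaks and motif windows. Python 3.11.15 and pandas 2.3.3 were used, and gene calling and motif search were checked on simulated data.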

Additional observations from a re-analysis of the deposited data

How the results depend on the processing

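The count of 3 of 6 genes was 1 within 200 bp, with the 1356 strongest peaks, and with only peaks that both replicates rank among their strongest; it ranged from 1 to 3 when a replicate was left out (1 from replicate 2 alone, which has neither plk-1 nor icp-1 among its strongest peaks). It was 3 within 1000 bp, with any transcript's 5' end and with merged peaks, and 2 with the nearest 5' end. The count of 4 bound partner genes was 2 within 200 bp, 7 within 1000 bp, 6 with any transcript's 5' end, 2 with the 1356 strongest peaks and 1 with peaks that rank high in both replicates. Each replicate alone gave 3, with a different set each time. These were spd-5, cdk-1 and bmk-1 from replicate 1, and spd-2, spd-5 and gsp-2 from replicate 2. The share of all coding genes called also moved with the rule. It was 4.49% within 200 bp, 10.9% within 1000 bp and 9.14% with any transcript's 5' end. It was 5.52% with the 1356 strongest peaks and 5.48% with peaks that rank high in both replicates. Replicate 1 alone gave 7.75% and replicate 2 alone 8.47%. All 3 thresholded summits were found in both replicate lists at 100, 200 and 500 bp. In windows of 50 bp on each side, the E2F words were in 19.4% of thresholded summits and 3.57% of all 5' ends, and the CHR words in 33.6% and 34.1%; the E2F words were still at 2 of the 3 members and the CHR words at 1. By construction a shorter distance, a smaller window or a subset of the peaks cannot raise these counts, and a longer distance cannot lower them; the cause of the difference between the replicates was not tested. Read depth is unknown, so a missing summit is not evidence of absent binding.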

Other observations

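Likeness to each bound member was measured by the sum of 3 absolute rank differences, in the pooled list and in both replicates. Besides the member, 1654 bound genes had a summit in every list, and any that shared its pooled summit were left out. The genes most like csc-1 were then jun-1, with a sum of 98, and sym-4, with 164. Those most like icp-1 were daf-16, with 482, and pbs-3, with 521. For plk-1 the closest were hst-6, with 1983, and unc-18, with 2282. The likeness is of ranks over 3 lists that share reads, since the pooled list was made from both replicates.

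The gene skp-1 lies 110 bp downstream of bir-1 on the same strand. Its strongest summits were inside the gene, 338 bp from its 5' end in the pooled list, with a signal of 11.5 and rank 15540, and 368 bp from it in replicate 1, with a signal of 11.5 and rank 6609. Replicate 2 had none within 500 bp of the skp-1 5' end, whereas the bir-1 summit was found in replicate 2 and not in replicate 1.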
